A study of Mus musculus with 6 samples.

Results

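The circadian clock genes Dbp, Per1, Per2, Per3, Nr1d1, Nr1d2, Cry1, Cry2, Clock and Npas2 were followed in the dorsal root ganglia of adult mice. The members were chosen by symbol, as core clock and clock output genes, and make up 10 of the 55809 genes in the count files. All 10 passed the filter on low counts. None of them passed the main test of prenatal stress against control, against 0.129% of all genes tested. Dbp and Nr1d1 varied within groups, differing up to 1.53-fold and 1.59-fold among controls. For Per3, Nr1d2, Clock and Npas2 all stress pools lay above all control pools, as for 9.33% of all genes.

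Dorsal root ganglia hold the cell bodies of sensory neurons with their satellite glia and Schwann cells. The 3 control pools (here C1, C2 and C3) and the 3 prenatal stress pools (S1, S2 and S3) each combined ganglia of 3 C57BL6J offspring aged 8 weeks. Dams of the stress group spent 3 sessions of 30 min per day confined in a tube beneath a strong lamp from embryonic day 13 to 18, and dams of the control group were not disturbed. No allele or agent is named for either group, and all mice lived in 12 h of light and 12 h of darkness. The labels give no hour of collection and no litter or sex for a pool, although both sexes are said to have been used. Group differences are given as log2 fold changes of prenatal stress over control from edgeR's quasi-likelihood test, with p-values adjusted over all genes tested by the Benjamini-Hochberg method.

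The mammalian clock is a transcriptional feedback loop with a period of about a day. CLOCK, or its relative NPAS2, pairs with BMAL1 (gene symbol Arntl) and activates genes through E-box motifs, among them the Per, Cry and Nr1d genes and Dbp. PER and CRY proteins then repress that activation, while the receptors encoded by Nr1d1 and Nr1d2 repress Arntl, Npas2 and Clock. In tissues with a running clock, Dbp, Nr1d1 and the Per genes peak away from Arntl and Npas2, so the balance between them moves with the time of day.

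Promoters are shown for Dbp and Nr1d1, which varied most between pools, for Per1, whose pools ranked differently, and for Per3, whose groups did not overlap. The windows are RefSeq sequences on GRCm38.p6, matched by symbol, from 250 bases before to 50 bases after the start site and written along the gene's strand. Capitals mark the E-box (CACGTG), a variant of it (CACGTT), the D-box bound by DBP (TTATGTAA or TTATGCAA), the cAMP response element (TGACGTCA) and the core of the NR1D element (TAGGTCA or TGGGTCA), each searched on both strands.
Per1, chr11:69098699-69098998, plus strand: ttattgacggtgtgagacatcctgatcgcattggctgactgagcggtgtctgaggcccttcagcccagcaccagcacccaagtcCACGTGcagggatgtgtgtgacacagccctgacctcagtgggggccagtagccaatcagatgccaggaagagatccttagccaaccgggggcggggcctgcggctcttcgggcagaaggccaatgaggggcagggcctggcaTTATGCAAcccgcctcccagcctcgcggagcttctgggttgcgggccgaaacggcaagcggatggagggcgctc
Per3, chr4:151044616-151044915, minus strand: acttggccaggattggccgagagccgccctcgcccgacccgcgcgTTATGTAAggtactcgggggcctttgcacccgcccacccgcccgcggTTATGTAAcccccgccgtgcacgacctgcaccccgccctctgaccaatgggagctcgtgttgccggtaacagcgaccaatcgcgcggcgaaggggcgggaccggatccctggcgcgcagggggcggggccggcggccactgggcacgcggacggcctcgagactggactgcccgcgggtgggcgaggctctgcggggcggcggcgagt
Nr1d1, chr11:98775328-98775627, minus strand: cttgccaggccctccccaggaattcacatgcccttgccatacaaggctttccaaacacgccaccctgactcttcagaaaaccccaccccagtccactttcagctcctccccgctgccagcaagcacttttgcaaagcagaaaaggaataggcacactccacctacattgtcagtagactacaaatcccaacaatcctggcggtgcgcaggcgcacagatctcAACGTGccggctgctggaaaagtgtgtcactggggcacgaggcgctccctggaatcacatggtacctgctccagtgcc
Dbp, chr7:45704997-45705296, plus strand: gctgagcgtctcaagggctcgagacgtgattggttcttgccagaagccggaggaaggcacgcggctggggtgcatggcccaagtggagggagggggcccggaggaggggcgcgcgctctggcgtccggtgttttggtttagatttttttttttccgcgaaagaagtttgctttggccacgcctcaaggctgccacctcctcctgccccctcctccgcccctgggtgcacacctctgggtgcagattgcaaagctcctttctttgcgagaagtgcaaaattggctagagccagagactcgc

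The Per1 window held 1 E-box and 1 D-box, and the Per3 window held 2 D-boxes. The Nr1d1 window held the E-box variant on its reverse strand, and the Dbp window held none of the motifs. Of all 32851 windows of this length, 7.15% held an E-box, 4.68% the variant, 1.66% a D-box, 1.79% a cAMP response element and 6.45% the core of the NR1D element. Windows were found for 9 of the 10 members. Among the others, Cry1 had an E-box and the variant, Cry2 had the variant, and those of Nr1d2, Clock and Npas2 had no match. A second Per1 window also had no match.

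Total gene counts were 51.7 to 87.4 M per pool, and Npas2, the member with the fewest reads, had 233 to 363 counts. The SD from counting alone, on the log2 scale, was 0.085 for Npas2 and 0.046 for Cry1, close to their SD within groups (0.088 and 0.052). For Dbp and Nr1d1 it was 0.035 and 0.030, against 0.28 and 0.33 within groups. The neuronal markers Avil (1038 to 1086 CPM) and Prph (1032 to 1078 CPM) were high in all 6 pools, but other neuronal markers separated the groups. Of 10 sensory neuron markers, Trpv1 (log2 fold change -0.19) and Calca (-0.22) were lower after prenatal stress and Mrgprd (0.27) was higher. Each of these was without overlap, as were 18.1% of all genes in either direction. The groups overlapped for the remaining markers, and 0 of the 10 passed the edgeR test. Neighbouring tissue differed between pools. The summed level of 10 skeletal muscle markers was 2572 CPM in C3 and 17.8 to 55.4 CPM in the other pools. That of 10 spinal cord markers was 281 CPM in C2, 235 CPM in C3 and 363 CPM in S2, against 50.5 to 99.0 CPM in C1, S1 and S3. That of 10 blood and marrow markers ran from 136 CPM in S1 to 991 CPM in S3, with 312 to 663 CPM in controls. In bulk tissue, fewer cells of a type and less RNA per cell cannot be told apart.

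Levels are CPM, the counts scaled to library size with TMM factors. The phase contrast and the ratio of Dbp to Per1, which serve to compare pools, were taken without scaling to exon length. To rank the clock genes, levels were compared per kilobase of exon. On that scale the members ran from Cry2 (18.6 CPM per kb, range 17.8 to 19.9 over the 6 pools) and Nr1d2 (17.7, range 16.6 to 19.2) down to Npas2 (0.891, range 0.749 to 0.978). Nr1d1 (11.7, range 8.76 to 14.5), Per1 (10.4, range 8.89 to 11.9) and Dbp (8.90, range 6.40 to 11.3) came between them and overlapped each other. Clock stood at 5.77 CPM per kb (range 5.31 to 6.83), overlapping Dbp and above Cry1 (4.37, range 4.16 to 4.62). Per2 (4.04, range 3.40 to 4.54) and Per3 (3.96, range 3.74 to 4.37) overlapped each other and Cry1. Cry2 and Nr1d2 also overlapped, whereas Npas2 lay below the lowest value of every other member. Arntl, the partner of CLOCK and NPAS2, was lower still at 0.440 CPM per kb (range 0.398 to 0.462).

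**Figure D1:**
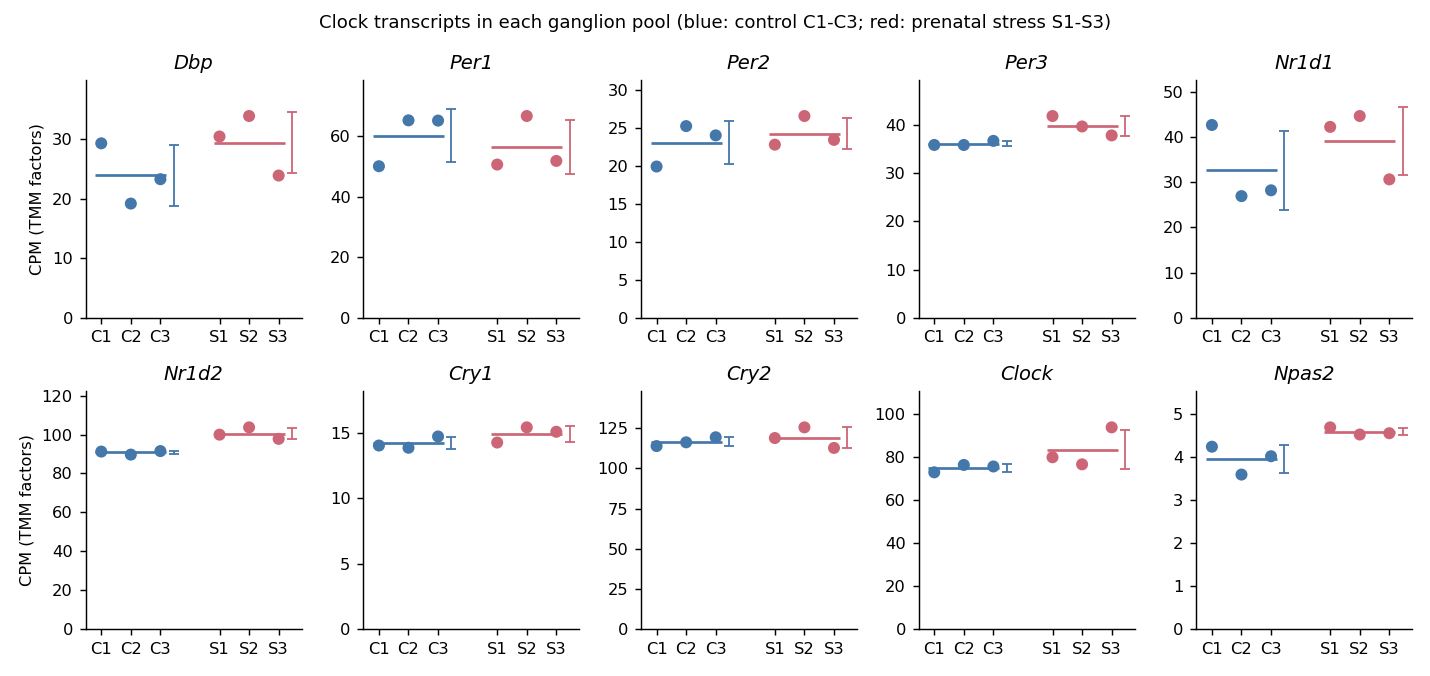
CPM of each of the 10 clock members in the 6 pools, with controls (C1 to C3) in blue and prenatal stress pools (S1 to S3) in red. Horizontal lines are group means, the bars beside them are SD over 3 pools, and each panel has its own axis from 0. Dbp and Nr1d1 are high in C1, S1 and S2, while the 3 stress pools lie above the 3 control pools for Per3, Nr1d2, Clock and Npas2.

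The output and feedback genes driven through E-boxes were examined first. Dbp encodes a PAR bZIP factor that passes the clock's phase to its target genes. It stood at 29.3, 19.1 and 23.2 CPM in C1, C2 and C3, and at 30.4, 33.9 and 23.9 CPM in S1, S2 and S3. The 2 groups overlapped, with C1 near S1 and C3 near S3. The group values were 23.9 ± 5.09 CPM in controls and 29.4 ± 5.08 CPM after prenatal stress (SD, n = 3 pools each), a log2 fold change of 0.30 ± 0.17 (SE, edgeR adjusted p = 0.56). Its unadjusted 95% interval ran from -0.11 to 0.71, so these pools do not show that the groups are alike. Between same-numbered pools, whose shared number has no stated meaning, the log2 difference was 0.06, 0.82 and 0.04, largest for S2 against C2. The log2 fold change was 0.16 without C2 (edgeR adjusted p = 0.844) and 0.18 without S2 (adjusted p = 0.741). Without C1 it was 0.47 (adjusted p = 0.501).

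Nr1d1 encodes REV-ERBα, the haem-binding receptor that represses Arntl. Its level was 42.7, 27.0 and 28.2 CPM in the control pools and 42.3, 44.7 and 30.7 CPM in the stress pools. As for Dbp, C1, S1 and S2 were high and C2, C3 and S3 were low, so the groups overlapped. The log2 fold change was 0.27 ± 0.20 (interval -0.21 to 0.74, edgeR adjusted p = 0.669). It was 0.51 without C1, 0.14 without C2, 0.17 without C3 and 0.16 without S2, and no adjusted p was under 0.05. Exons of Nr1d1 overlap Thra by 263 bases on the opposite strand, and those of Dbp overlap Sphk2 by 539 bases. The strand setting of the counting is not given in the sources used here. Thra ranged from 194 to 230 CPM and Sphk2 from 43.9 to 54.3 CPM, both over narrower folds than the clock gene beside them. Sphk2 was highest in C1, S1 and S2, the same 3 pools as Dbp, and the part of shared reads was not tested.

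Nr1d2 encodes REV-ERBβ, the close relative of REV-ERBα. It had 91.2, 89.7 and 91.5 CPM in controls and 99.95, 103.7 and 97.8 CPM after prenatal stress, with all stress pools above all control pools. The log2 fold change was 0.15 ± 0.03 (interval 0.07 to 0.22, edgeR adjusted p = 0.271), and the DESeq2 Wald test, which called 2.64% of the genes it adjusted, gave 0.14 ± 0.04 (adjusted p = 0.02). Nr1d2 was the only member called by DESeq2. Its range of 1.16-fold over the 6 pools contrasts with 1.66-fold for Nr1d1.

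The Per genes encode the repressors of the CLOCK and BMAL1 complex, and Per1 is also induced by glucocorticoids and by neuronal activity. Per1 stood at 50.1, 65.3 and 65.2 CPM in C1 to C3 and at 50.6, 66.7 and 51.8 CPM in S1 to S3. Thus C2, C3 and S2 were high and C1, S1 and S3 low, an order unlike that of Dbp. Its log2 fold change was -0.09 ± 0.14 (interval -0.41 to 0.22, edgeR adjusted p = 0.849). With 1 pool left out it ranged from -0.24 (without S2) to -0.03 (without S1). It was -0.21 without C1, -0.04 without C2, -0.03 without C3 and -0.04 without S3, and did not pass the test in any of these cases.
Per2 had the same 3 pools on top. Its level was 19.9, 25.2 and 24.0 CPM in controls and 22.8, 26.6 and 23.4 CPM in stress pools, and its log2 fold change of 0.07 ± 0.10 (edgeR adjusted p = 0.836) was -0.02 without C1 and -0.00 without S2. Per3, the Per gene with the least established role in the core loop, behaved otherwise. It had 35.9, 35.9 and 36.8 CPM in controls and 41.9, 39.8 and 37.9 CPM after prenatal stress. The groups did not overlap, and the log2 fold change was 0.14 ± 0.04 (interval 0.04 to 0.24, edgeR adjusted p = 0.366).

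The cryptochromes, which act with the PER proteins as repressors, had small spreads between pools. Cry1 lay between 13.9 and 14.7 CPM in controls and between 14.3 and 15.4 CPM in stress pools (log2 fold change 0.07 ± 0.06, edgeR adjusted p = 0.681). Cry2 lay between 113.9 and 119.4 CPM in controls and between 112.7 and 125.6 CPM in stress pools (0.03 ± 0.04, edgeR adjusted p = 0.848). The groups overlapped for both, and each gene spanned 1.11-fold over all pools.

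Clock and Npas2 encode the activating bHLH-PAS proteins. Clock stood at 72.9, 76.3 and 75.6 CPM in controls and at 79.9, 76.6 and 93.8 CPM in stress pools. S2 was barely above the highest control and S3 was far above the rest (log2 fold change 0.15 ± 0.07, interval -0.02 to 0.33, edgeR adjusted p = 0.488). Without S3 its value was 0.06. S3 was also the pool with the highest blood and marrow sum (991 CPM). S1, with the lowest sum (136 CPM), had the next-highest Clock value. In C3, with a sum of 663 CPM, Clock was 75.6 CPM, between C1 (72.9 CPM) and C2 (76.3 CPM). The part of blood and marrow RNA in the Clock value was not tested. Npas2 had 4.24, 3.59 and 4.02 CPM in controls and 4.69, 4.52 and 4.55 CPM in stress pools. All stress pools were above all controls (0.22 ± 0.10, interval -0.01 to 0.44, edgeR adjusted p = 0.467).

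Of the 10 members, 0 passed the edgeR test, against 0.129% of the 20146 genes tested. At an unadjusted p under 0.05 there were 2 members, Per3 and Nr1d2, both higher after prenatal stress, where 6.01% of all genes were higher at that level and 11.1% passed it in either direction. The groups did not overlap for 4 members (Per3, Nr1d2, Clock and Npas2), all with stress above control, against 9.33% of all genes in that direction and 18.1% in either. Log2 fold changes were above 0 for 9 members, Per1 being the exception, and for 52.3% of all genes. The median was 0.14 for the members and 0.01 for all genes. These counts describe a list of named genes and were not tested as a set. Satellite glia markers also separated the groups, in the other direction. Their sum was 3186 to 3528 CPM in controls and 2823 to 3091 CPM in stress pools. All 8 had negative log2 fold changes, 4 without overlap, and 0 passed the edgeR test (4 at an unadjusted p under 0.05). None was at 0, and their part in the members' values was not tested.

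**Figure D2:**
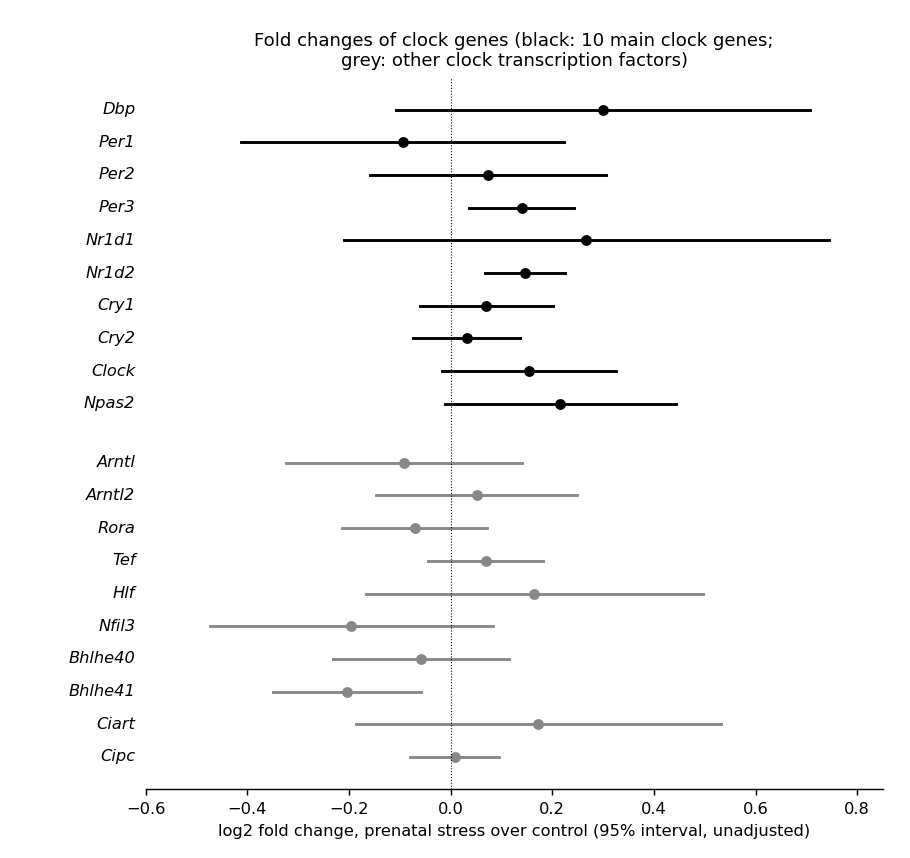
Log2 fold change of prenatal stress over control with its unadjusted 95% interval from edgeR, for the 10 members (black) and 10 other clock transcription factors and repressors (grey). Rorb is not drawn because its interval runs from -2.37 to 2.42. Intervals of Per3, Nr1d2 and Bhlhe41 exclude 0, and those of Dbp and Nr1d1 are the widest drawn among the members.

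The question of phase was addressed with a contrast taken in each pool, the mean log2 CPM of Per1, Per2, Per3 and Dbp minus that of Clock and Npas2. The contrast was 0.86, 0.97 and 0.96 in C1, C2 and C3 and 0.85, 1.08 and 0.64 in S1, S2 and S3. The highest and the lowest value were both stress pools, and the control values lay between them. Group values were 0.93 ± 0.06 in controls and 0.85 ± 0.22 after prenatal stress (SD, n = 3 pools each), a difference of -0.08. The stress pools spanned 0.43 and the control pools 0.11 on the log2 scale, so the group difference was smaller than the range within either group. Between same-numbered pools the difference was -0.02, 0.10 and -0.32. No test was applied, since the contrast is a score over named members.
The sign of the small difference depended on 1 pool and on the genes used. It was 0.03 without S3, 0.01 with Arntl added to Clock and Npas2, and 0.00 for Dbp and Per3 against Npas2 alone. The low contrast of S3 came with the highest Clock value, 0.25 above the mean of the 6 pools on the log2 scale.

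Per genes and Dbp did not move as 1 group. The ratio of Dbp to Per1 was 0.584 in C1, 0.293 in C2 and 0.357 in C3, and 0.601, 0.508 and 0.460 in S1, S2 and S3. On the log2 scale it spanned 0.99 within controls and 0.38 within stress pools, with group values of -1.34 ± 0.51 and -0.94 ± 0.19 (SD, n = 3 pools each). C1 lay with the stress pools in this ratio, and only C2 and C3 were lower. Averaging Per1 with Dbp therefore cancelled opposite deviations in C1, C2, C3 and S1. Dbp and Nr1d1 together deviated by 0.22, -0.42 and -0.24 in C1 to C3 and by 0.24, 0.36 and -0.16 in S1 to S3, while the mean of the 3 Per genes deviated by -0.18, 0.06, 0.05, -0.03, 0.15 and -0.06 in the same order. Clock and Npas2 deviated by -0.06, -0.15 and -0.07 in controls and by 0.08, 0.02 and 0.17 in stress pools.

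**Figure D3:**
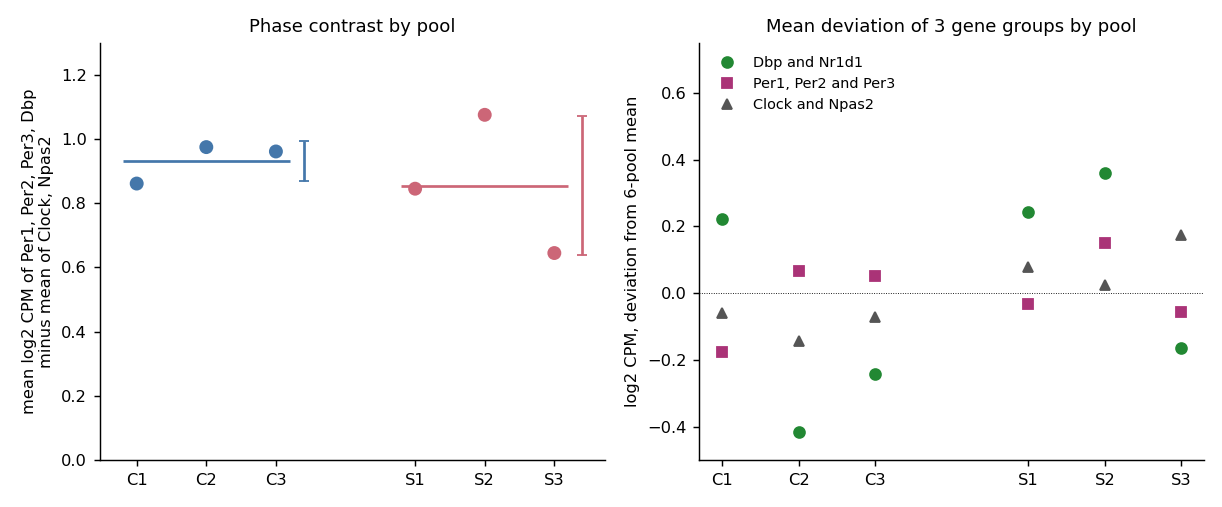
Left, the phase contrast of each pool on the log2 scale, with group means as lines and SD over 3 pools as bars. Right, the mean deviation from the 6-pool mean in log2 CPM for Dbp with Nr1d1, the 3 Per genes, and Clock with Npas2, where Dbp and Nr1d1 range from -0.42 to 0.36 and the other groups stay within -0.18 and 0.17.

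The spread between pools of 1 group was unequal among members. The within-group SD on the log2 scale was 0.33 for Nr1d1, 0.28 for Dbp and 0.22 for Per1, at or above that of 98.9%, 98.5% and 97.7% of the 10370 genes with a mean of at least 10 CPM. Per2 followed with 0.15 (94.4%) and Clock with 0.11 (87.1%). Cry2 (49.5%), Per3 (42.0%) and Cry1 (40.6%) were near the middle, and Nr1d2 had 0.03 (14.7%). The members with non-overlapping groups thus included the 1 with the least spread, whereas Dbp and Nr1d1 had larger group differences but far larger spreads.

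Of 11 other clock transcription genes, 2 had the same highest pools as Dbp and 3 the same as Per1, and the rest had neither order. Hlf, a PAR bZIP factor related to Dbp, stood at 19.2, 16.6 and 14.8 CPM in controls and 18.9, 22.1 and 15.6 CPM in stress pools. Ciart, a repressor of the CLOCK and BMAL1 complex, stood at 6.93, 5.42 and 5.61 CPM in controls and 6.46, 8.09 and 5.69 CPM in stress pools. Both were highest in C1, S1 and S2, as were Dbp and Nr1d1, and they were the only 2 of 11 other clock transcription genes with that order. The share of all genes with that order was not counted. The Ciart promoter window held 3 E-boxes, whereas the Hlf and Dbp windows held no E-box. Tef, another PAR bZIP gene, had 2 E-boxes over its 2 windows and ranged only from 151 to 169 CPM. A link between motifs and pool order was not tested.
Arntl had 3.37, 3.40 and 3.48 CPM in controls and 3.00, 3.41 and 3.21 CPM in stress pools (log2 fold change -0.09 ± 0.10, edgeR adjusted p = 0.782). It spanned 1.16-fold over pools in which Dbp spanned 1.77-fold. Nfil3, a bZIP repressor that competes with DBP for D-boxes, was 4.17, 4.36 and 5.29 CPM in controls and 4.11, 4.20 and 3.76 CPM in stress pools (-0.20 ± 0.12, edgeR adjusted p = 0.579).

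Of the 11 other transcription genes, 0 passed the test, 6 had positive and 5 negative values, and the median log2 fold change was 0.01. Bhlhe41, a repressor at E-boxes, was the only 1 with an unadjusted p under 0.05, where 5.11% of all genes were lower at that level. It had 51.8, 45.5 and 46.4 CPM in controls and 43.7, 41.7 and 39.2 CPM in stress pools, without overlap, as were 8.76% of all genes in that direction (-0.20 ± 0.06, edgeR adjusted p = 0.358). Its relative Bhlhe40 stood at -0.06 ± 0.07. The remaining values were 0.05 ± 0.08 for Arntl2, -0.07 ± 0.06 for Rora, 0.07 ± 0.05 for Tef, 0.16 ± 0.14 for Hlf, 0.17 ± 0.15 for Ciart and 0.01 ± 0.04 for Cipc, with edgeR adjusted p from 0.637 to 0.961. Rorb (0.02 ± 1.02) ranged from 0.103 to 1.84 CPM and was highest in C2, C3 and S2.

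Genes that modify or degrade clock proteins did not pass either (0 of 13, median log2 fold change -0.00). Those with the smallest p were Timeless, better known for replication fork stability (-0.21 ± 0.06, edgeR adjusted p = 0.364), Fbxl21, an F-box protein that acts on the cryptochromes (0.21 ± 0.07, adjusted p = 0.385), and Btrc, which recognises phosphorylated PER (0.13 ± 0.06, adjusted p = 0.455). Among 9 clock output genes 0 passed (median -0.06). The cell cycle inhibitor Cdkn1a had 92.4, 93.8 and 91.1 CPM in controls and 83.8, 78.2 and 69.7 CPM in stress pools (-0.26 ± 0.06, edgeR adjusted p = 0.286). The DESeq2 Wald test called it lower (-0.26 ± 0.07, adjusted p = 0.00723), the only 1 of the 33 other clock genes so called. Herpud1, of the endoplasmic reticulum stress response, stood at 0.15 ± 0.04 (edgeR adjusted p = 0.294), and Nampt, which makes an NAD precursor, at -0.09 ± 0.05 (adjusted p = 0.553).

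Some marker lists shared their highest pools with Per1 or with Dbp. How many of all genes did so was not counted, so the shares below have no background. Per1 and Per2 were highest in C2, C3 and S2, and so were 10 of 10 spinal cord markers. Their summed level ranged from 50.5 to 281 CPM in controls and from 57.9 to 363 CPM in stress pools. Olig2, the lowest of them in CPM, was near 0 in C1 (0.0144 CPM). The part of spinal cord RNA in the Per1 and Per2 values was not tested. Arntl, Rorb and Nfil3 shared that order, but by little for 2 of them. Arntl had 3.40 CPM in C2 against 3.37 CPM in C1, and Nfil3 had 4.20 CPM in S2 against 4.17 CPM in C1. In the pools with the lower spinal cord sums (C1, S1 and S3), Per1 stood at 50.1, 50.6 and 51.8 CPM.
Dbp and Nr1d1 were highest in C1, S1 and S2, and so were 6 of 10 fibroblast markers, a list added after the pool orders had been seen. The fibroblast sum was 2324, 1806 and 1685 CPM in C1 to C3 and 1983, 2000 and 1685 CPM in S1 to S3, a 1.38-fold range. C2, the lowest pool for Dbp, was above C3 and S3 in this sum. None of these 10 markers was near 0, and the part of fibroblast RNA in Dbp and Nr1d1 was not tested. The Schwann cell sum (6249 to 8344 CPM) was also highest in C1, S1 and S2, although C2 (7924 CPM) was close to S1 (7988 CPM). Only 2 of 8 Schwann cell markers had that order singly. C3, with the large muscle sum, had the middle control value of Dbp, Nr1d1 and Clock, and without it the log2 fold change of Dbp was 0.28.

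**Figure D4:**
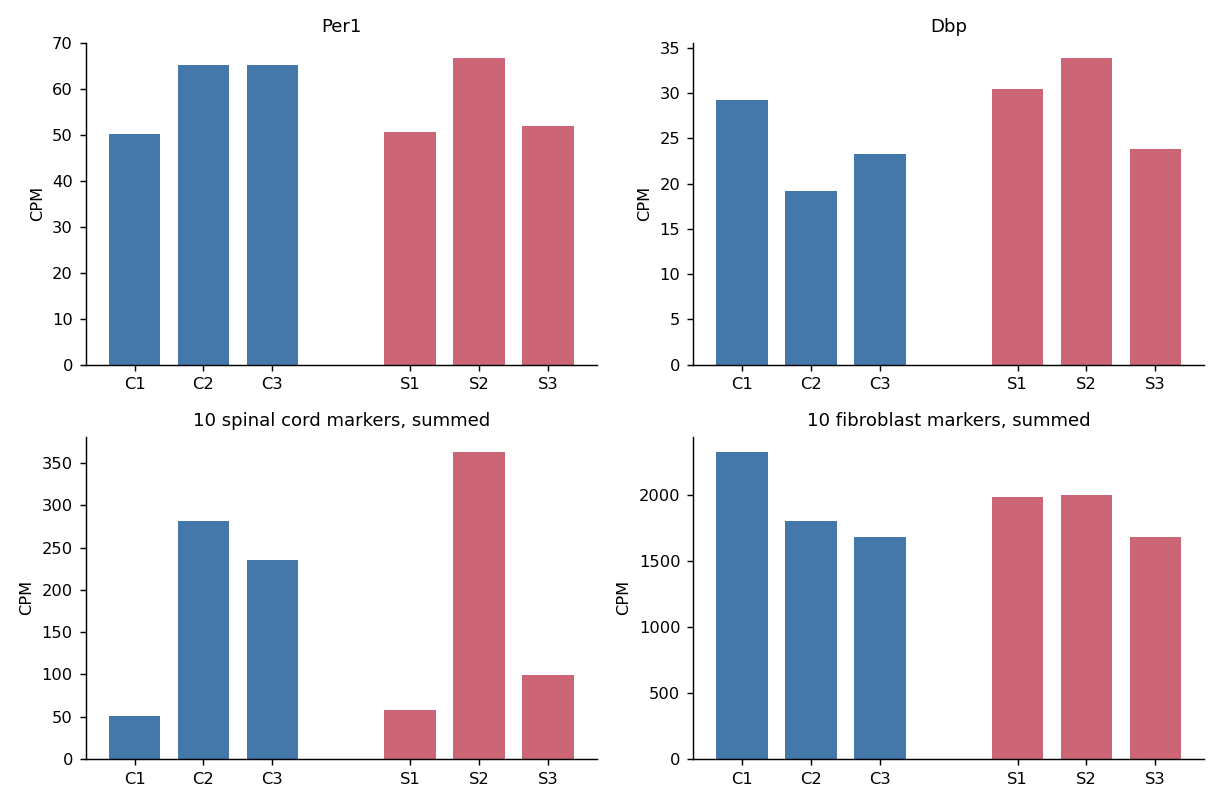
CPM of Per1 above the summed CPM of 10 spinal cord markers, and CPM of Dbp above the summed CPM of 10 fibroblast markers, in each of the 6 pools (blue, control; red, prenatal stress). Per1 and the spinal cord sum are highest in C2, C3 and S2, and Dbp and the fibroblast sum in C1, S1 and S2.

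Because Per1 responds to glucocorticoids, 12 genes of that response were set beside it. Their summed level was 705, 878 and 822 CPM in C1 to C3 and 729, 762 and 803 CPM in S1 to S3, lowest in the same C1 and S1 in which Per1 was low. In S2, where Per1 was highest (66.7 CPM), the sum was below that of S3. Tsc22d3, a glucocorticoid-induced leucine zipper gene, had 170, 225 and 207 CPM in controls and 184, 201 and 210 CPM in stress pools. Klf9 had 132, 147 and 139 CPM in controls and 126, 135 and 153 CPM in stress pools. In S3 these 2 genes were high and Per1 was low. Of the 12 genes 0 passed the edgeR test (median -0.05). The summed level of 12 immediate early genes was 165 to 171 CPM in controls and 140 to 150 CPM in stress pools, and 0 of them passed. It did not share the pool order of Per1.

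The genes whose pool pattern lay nearest that of Dbp were found by the root mean square difference of log2 CPM deviations over the 6 pools, among 15239 genes with a mean of at least 1 CPM. Leaving out predicted and clone names, Hoxa3 (0.08), Slc9b2 (0.09), Gas1 (0.09), Islr2 (0.09) and Zfp341 (0.10) were nearest, and Nr1d1 was at rank 3 among all (0.09). The other members were far behind, with Npas2 at rank 290, Nr1d2 at rank 1039 and Per3 at rank 1345, and Per1 was the farthest at rank 13689. Nearest to Npas2 were Dkk3 (0.02), Cacna1h (0.03), Adra2c (0.03), Tox3 (0.03) and Htr1a (0.04). These differences were all below the SD of Npas2 from counting alone (0.085 on the log2 scale), so which genes came nearest may rest on sampling noise. The nearest member was Nr1d2 at rank 289, and Arntl's partner Clock was at rank 4749. A gene that varies little is near many others by this measure, so ranks for Npas2 separate genes less well than those for Dbp.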

How the data were processed

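Poly-A selected, stranded libraries of 6 ganglion pools gave raw counts per gene symbol, deposited by the authors without normalization. The submitters' processing notes name FastQC, STAR 2.4 and HTSeq 0.9.1 and list GRCm39 beside mm10. The build behind the counts is not given in the sources used here. HTSeq's summary lines (15.3% to 16.2% of each file) were left out.

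Genes were tested with edgeR 4.0.16 (R 4.3.3): TMM factors, filterByExpr with a minimum count of 10, and the quasi-likelihood F test of group over all 6 pools. The threshold was a Benjamini-Hochberg adjusted p of 0.05 over 20146 genes. SE is the size of the log2 fold change divided by the square root of F. Logs used a prior count of 2. Exon lengths came from GENCODE M21. Alternatives were DESeq2 1.42.0, limma-voom 3.58.1, other size factors, no filter, a replicate block and each pool left out.

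The members and lists were chosen with earlier results of these data known. Named genes were the members, all genes of the other clock transcription list (1 further gene is not reported here), up to 3 of smallest p in the turnover and output lists, up to 2 of highest level in other lists, and 5 of nearest pattern to Dbp and to Npas2. Not every gene the rule takes is printed. Avil, Prph, Trpv1, Mrgprd and Olig2 were named outside the rule, and the sensory neuron markers of highest level were Nefh and Calca.

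Pools that share a replicate number had correlated deviations (0.34, 0.22 and 0.13 across genes). Correlations of differently numbered pools are not given here. The meaning of a number is not given, so the main test used group alone and did not pair the pools. Differences between same-numbered pools and the replicate block are given beside it. All 15 pairs of libraries differed by more than sampling noise (chi-square per degree of freedom 10.02 to 32.89). The labels call the pools biological replicates and give no litters, so p-values measure the spread between pools.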

Additional observations from a re-analysis of the deposited data

How the results depend on the processing

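The number of members past the edgeR threshold was 0 in the analysis of all pools and stayed 0 with DESeq2 size factors, without the low-count filter, with limma-voom, with the replicate block and with each pool left out. It was 1 with the DESeq2 Wald test (Nr1d2, adjusted p = 0.02). The 33 other clock genes gave 0 calls in those settings and 1 with DESeq2. Over all genes the count of 26 was 25 with DESeq2 size factors, 29 with limma-voom and 22 with the replicate block, 49 without the filter, 335 with DESeq2, and 2 to 14 with 1 pool left out. The cause of these shifts was not tested. The replicate block changed no call of a member and left the phase contrast at -0.08 by construction.

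Among 11 alternatives, Per2 turned negative without C1 (-0.021) and without S2 (-0.00027), and ranged from -0.021 to 0.137 with 1 pool left out. Cry2 turned negative without S2 and ranged from -0.012 to 0.063. The other members kept their sign. The phase contrast difference ranged from -0.19 without S2 to 0.03 without S3. Counting error is close to the whole spread within groups for Npas2 and Cry1, so depth limits those values, and all values rest on 3 pools a group.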
